A study of Mus musculus with 6 samples.

Results

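T-bet ChIP-seq peaks were described at the genes of 3 regulators of effector lymphocytes, Prdm1, Id2 and Bhlhe40, in regulatory T cells induced in culture from mouse CD4 T cells (iTreg cells). The members were all peaks that overlapped 1 of 3 fixed windows of build mm9: chromosome 10 from 44000000 to 44400000 around Prdm1 (400 kb), chromosome 12 from 25600000 to 25950000 around Id2 (350 kb) and chromosome 6 from 108520000 to 108720000 around Bhlhe40 (200 kb). They numbered 19 of the 8925 peaks in the 3 peak lists. The list from T-bet knockout (KO) cells held 0 of them, wild-type (WT) replicate 1 held 18 and WT replicate 2 held 1, out of 78, 7996 and 851 peaks in these lists.

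The KO group was 1 ChIP library and the WT group 2 ChIP libraries, all from Balb/c cells and all precipitated with the same rabbit serum against T-bet. In both groups naive CD4 T cells were sorted from spleen and lymph nodes of mice aged 4 to 10 weeks, stimulated through plate-bound antibodies to CD3 and CD28 at 10 µg/ml each, and kept for 7 days with TGF-β1 at 33 ng/ml and IL-2 at 20 ng/ml. These are regulatory T cells made in culture, not cells taken from a tissue, and the labels do not say how the T-bet gene was disrupted or whether cells of several mice were pooled. The KO serum signal was taken as the background of the antibody. The lists hold no expression values, so neither the iTreg label nor the loss of T-bet in the KO cells was checked by a marker. Read numbers per library are unknown, and the WT replicate 1 list was far longer than the WT replicate 2 list.

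T-bet, encoded by Tbx21, belongs to the T-box family of DNA-binding proteins and is the lineage factor of T helper 1 cells. Some regulatory T cells also make it. Prdm1 encodes Blimp-1, a zinc-finger repressor that drives plasma cell formation and marks effector regulatory T cells. Id2 encodes a helix-loop-helix protein without a DNA-binding region, which pairs with E proteins and keeps them off DNA. Bhlhe40 encodes a basic helix-loop-helix repressor that is induced when T cells are activated and shapes their cytokine output.

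The promoters of the genes at which the peaks were collected are shown because T-box proteins bind a short DNA word that can be searched for in them. The RefSeq promoter table, in build GRCm38.p6, held 2 of the 3 genes. Each sequence runs from 250 bases before to 50 bases after the start of the gene, in the direction of transcription, with the 50 transcribed bases in capitals. GRCm38.p6 positions cannot be compared directly with the mm9 positions of the peaks and were not converted. Whether a peak lay on either promoter was therefore not determined.
Prdm1, GRCm38.p6 chr10:44458699-44458998, minus strand: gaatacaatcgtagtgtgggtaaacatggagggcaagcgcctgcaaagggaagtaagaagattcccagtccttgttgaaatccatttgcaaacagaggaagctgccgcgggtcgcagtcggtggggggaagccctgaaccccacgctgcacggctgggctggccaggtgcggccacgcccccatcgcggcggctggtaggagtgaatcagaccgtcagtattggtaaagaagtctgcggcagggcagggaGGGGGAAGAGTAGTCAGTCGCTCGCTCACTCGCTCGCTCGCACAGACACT
Id2, GRCm38.p6 chr12:25096043-25096342, minus strand: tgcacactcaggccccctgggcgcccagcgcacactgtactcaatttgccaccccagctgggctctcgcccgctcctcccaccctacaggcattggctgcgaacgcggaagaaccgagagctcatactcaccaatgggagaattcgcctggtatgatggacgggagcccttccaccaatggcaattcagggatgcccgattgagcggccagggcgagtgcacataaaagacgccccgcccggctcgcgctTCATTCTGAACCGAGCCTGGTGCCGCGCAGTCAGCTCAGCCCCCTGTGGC
Both promoters were rich in G and C, with 59.7% for Prdm1 and 63.3% for Id2, against a median of 52.7% over the 32851 promoters of the table. They held 20 and 21 CpG dinucleotides, against a median of 7.00. Neither held the T-box word AGGTGTGA, its longer form AGGTGTGAA, or the GGTGTG contained in both, on either strand. Among all promoters, 1.28% held AGGTGTGA, 0.271% held AGGTGTGAA and 19.0% held GGTGTG. The absence of a match says only that these letters are not in these 300 bases.

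The first question was whether the windows held sites found in both WT libraries. None was found: 0 of the 18 WT replicate 1 peaks met a WT replicate 2 peak by at least 1 bp (exact 95% binomial interval 0 to 18.5%), against 9.50% over the whole replicate 1 list. The interval holds the share of the whole list. It covers counting error only and takes the peaks of 1 library as independent, although many lay close together. A difference between the windows and the list was therefore not tested. The replicate 1 peaks of the windows had scores, the peak caller's own value for each peak, of 73.6 to 231. Of the 6758 replicate 1 peaks in that range of scores, 323 met a replicate 2 peak, or 4.78% (4.28 to 5.32%). In the other direction, the 1 WT replicate 2 peak met no replicate 1 peak, whereas 85.4% of the whole replicate 2 list did.

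The KO library was taken as the background. No KO peak lay in the windows, so 0 of the 18 WT replicate 1 members met a KO peak, against 0.550% of that whole list, and the 1 WT replicate 2 member met none, against 5.41% of that list. At the mean density of the KO list the windows would hold 0.0279 peaks, so a KO count of 0 says little about the serum's background there. The nearest KO peak lay 4186 kb from a Prdm1 member, 29872 kb from an Id2 member and 17211 kb from a Bhlhe40 member. With 1 KO library, no test of KO against WT across samples could be made. The deposited lists of the KO library and WT replicate 2 carry the same number at the start of their names and that of WT replicate 1 another. What the number marks is not stated. If it marks a batch, the difference between the WT replicates in these windows and the batch cannot be told apart.

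**Figure D1:**
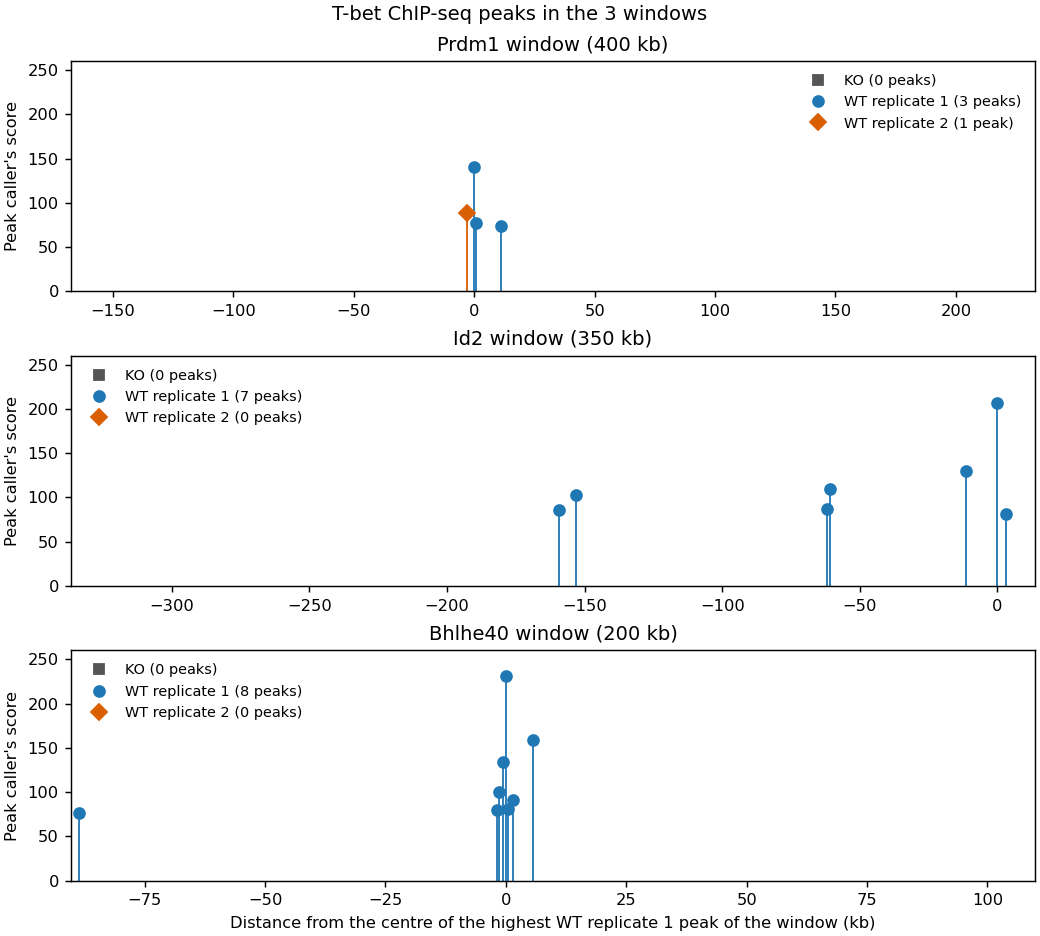
Peaks in the Prdm1, Id2 and Bhlhe40 windows by list. The x axis gives the distance in kb of each peak's centre from the centre of the highest WT replicate 1 peak of that window, and the y axis the peak caller's score. The KO list held 0 peaks in every window, WT replicate 1 held 3, 7 and 8, and WT replicate 2 held 1, beside Prdm1 peaks of replicate 1 without overlapping them.

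At Prdm1, the gene of Blimp-1, both WT libraries had a peak within 3 kb of each other but at separate positions. The WT replicate 2 peak spanned positions 44164234 to 44164487 of chromosome 10, scored 88.0 and took rank 601 of 851 in its list. The nearest WT replicate 1 peak began 2.71 kb further along, from 44167201 to 44167416, with a score of 140 and rank 2608 of 7996. It was the strongest of the 3 replicate 1 peaks of the window. The second lay only 665 bp beyond it, from 44168082 to 44168224 (score 76.9), and the third from 44178514 to 44178662 (score 73.6). Both scored low, above 8.44% and 2.21% of their list. All 4 peaks of the Prdm1 window fell within 14.4 kb, and the remainder of its 400 kb held none in any of the 3 lists. When peaks up to 5 kb apart were counted as met, a rule chosen after seeing the data, 2 of the 18 replicate 1 members had a replicate 2 counterpart, against 13.8% of the whole list. The 1 replicate 2 member then had one too, against 89.2% of its whole list. Of the 124 replicate 2 peaks of the whole list without a replicate 1 peak, 32, or 25.8% (18.4 to 34.4%), likewise had one within 5 kb. Of the 251 replicate 2 peaks with a score no higher than the Prdm1 one, 60 lacked a replicate 1 counterpart. Next to Prdm1, RefSeq places Atg5, an autophagy gene, and Prep, a peptidase gene, as the neighbouring protein-coding genes in GRCm38.p6.

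At Id2, the E-protein inhibitor, all 7 peaks belonged to WT replicate 1, and they fell into 3 groups spread over 162 kb. The first was a pair with scores of 85.6 and 103, separated by 5.71 kb, of which the stronger lay on chromosome 12 from 25783104 to 25783324. The second was a closer pair, 943 bp apart, with scores of 87.2 and 109, the stronger from 25875550 to 25875820. The third group lay near the far edge of the window and held its strongest peaks. The highest ran from 25936249 to 25936697, was 449 bp wide and scored 207, which placed it at rank 1301 of the replicate 1 list, above 83.7% of it. The peak before it, from 25924983 to 25925250, scored 129, and the one after it scored 81.4. Of the 7 Id2 peaks, those scoring 207, 129 and 109 were the highest and the one scoring 81.4 the lowest. The nearest WT replicate 2 peak was 803 kb from any of them, and the nearest KO peak 29872 kb. In GRCm38.p6 the protein-coding neighbours of Id2 are Kidins220, which encodes a scaffold protein at the membrane, and Rnf144a, an E3 ubiquitin ligase gene. Which of these genes the outer peaks lay near was not determined.

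At Bhlhe40, the activation-induced repressor, 7 of the 8 WT replicate 1 peaks stood in 1 dense run. The run covered chromosome 6 from 108608328 to 108615937, a span of 7.61 kb, and its peaks filled 1.76 kb or 23.1% of it. From start to end their scores were 79.4, 100, 134, 231, 81.0, 90.6 and 159. The scores therefore climbed to the fourth peak, dropped, and were high again at the last. The fourth, from 108609960 to 108610480, was the widest (521 bp) and the highest of all 18 replicate 1 members, at rank 1062 of the list. The last, from 108615713 to 108615937, scored 159 and stood 3.95 kb apart from the sixth. The third, from 108609476 to 108609701, scored 134. Between the first 6 the gaps were 101 to 819 bp. The KO list and the WT replicate 2 list held 0 peaks in this run, and the nearest replicate 2 peak was 104 kb away. The remaining member, from 108521409 to 108521539 with a score of 76.5, lay 86.8 kb before the run and close to the edge of the window.

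**Figure D2:**
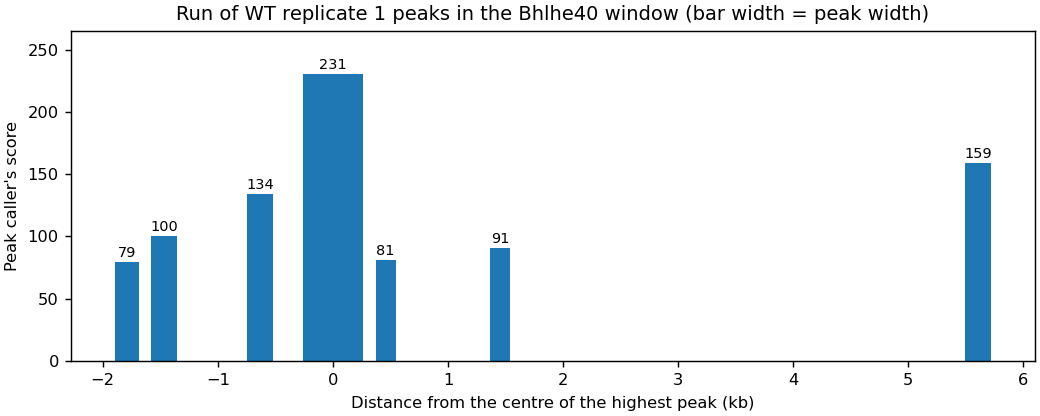
The 7 WT replicate 1 peaks of the run in the Bhlhe40 window. The x axis gives the distance in kb from the centre of the highest peak, the y axis the peak caller's score, and the width of each bar is the width of the peak. Scores of 79.4 to 231 crowd around the highest peak, and the peak with a score of 159 stands 3.95 kb apart from its neighbour.

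The edge of the Bhlhe40 window decided whether sites found in both WT libraries were counted, because a set of them lay just outside it. Within 100 kb before the window, WT replicate 1 had 6 peaks and WT replicate 2 had 3, and each of the 3 overlapped a replicate 1 peak. No KO peak lay there. The site nearest to the window, 16.0 kb from its edge, ran from 108503567 to 108503986 in replicate 1, with a score of 497 (rank 177 of 7996). The replicate 2 peak on it scored 256 (rank 62 of 851). The next site, from 108503091 to 108503391, scored 139 in replicate 1 and 92.8 in replicate 2. The third, from 108499409 to 108499947, scored 506 in replicate 1 (rank 171) and 292 in replicate 2 (rank 46). The sites scoring 497 and 506 in replicate 1 thus stood among the higher peaks of both WT lists, above every member in the window. A further pair of replicate 1 peaks, with scores of 330 and 326, lay 32.7 and 34.3 kb from the edge without a replicate 2 peak. Itpr1, a calcium channel gene, and Arl8b, a lysosomal GTPase gene, are the protein-coding neighbours of Bhlhe40 in GRCm38.p6, and to which gene these sites lie nearest was not determined.

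**Figure D3:**
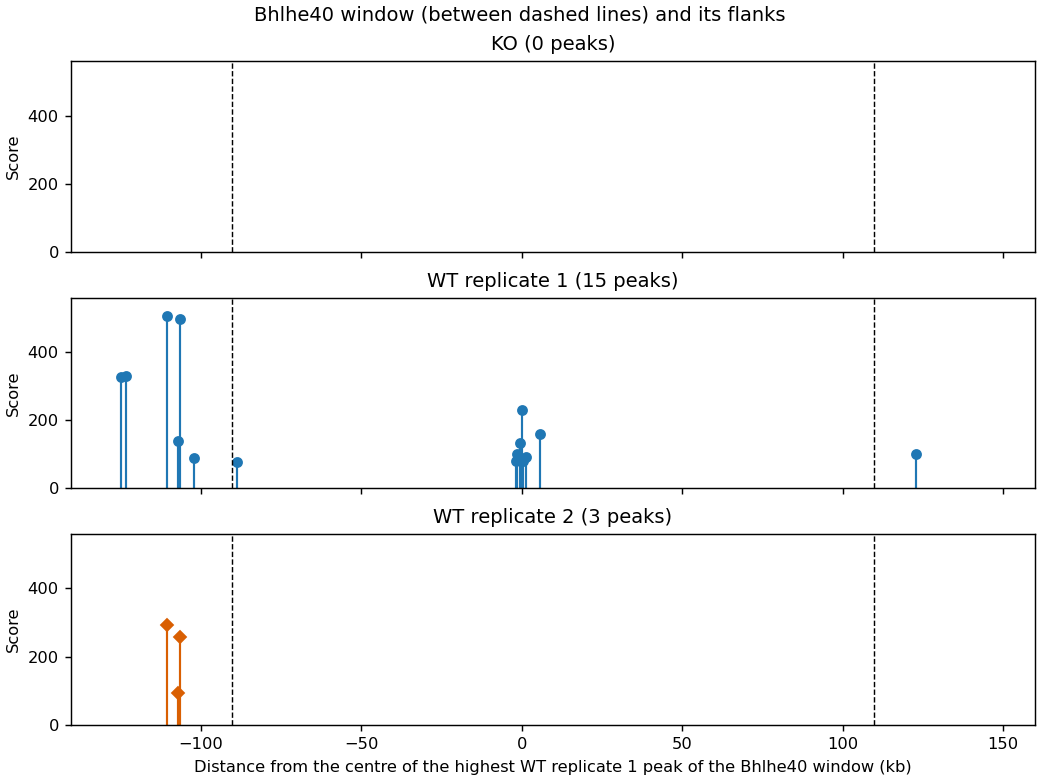
Peaks of the KO list, WT replicate 1 and WT replicate 2 in the Bhlhe40 window, between the dashed lines, and in the flanks shown. The x axis gives the distance in kb from the centre of the highest WT replicate 1 peak of the window, and the y axis the peak caller's score. The KO panel is empty, and the 3 WT replicate 2 peaks stand before the window over replicate 1 peaks with scores of 506, 139 and 497.

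The flanks of the other windows held less. Within 100 kb of the Id2 window, WT replicate 1 had 2 more peaks, both beyond the far edge and without a replicate 2 peak. The one at 25990785 to 25991110 scored 174, and the other, at 25996558 to 25996740, scored 109. No list had a peak within 100 kb outside the Prdm1 window. The nearest WT replicate 2 peak outside it lay 141 kb away, from 44541484 to 44541678, with a score of 98.1 and no replicate 1 peak on it. The nearest replicate 1 peaks outside were 281 kb before the Prdm1 window (score 91.4) and 340 kb beyond it (score 75.3).

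The WT replicate 1 members were of moderate score. Their median score was 95.4, against 108 for the whole list, and 7 of the 18, or 38.9%, scored above the list's median. None was among the highest 10% of the list, which began at a score of 263. The strongest members of Bhlhe40 and Id2, at 231 and 207, came nearest to it, and that of Prdm1, at 140, was lower. Median width was 214 bp for the 18 members, against 175 bp for the whole list. The median score was 76.9 at Prdm1, 103 at Id2 and 95.4 at Bhlhe40, and the ranges of the 3 windows overlapped.

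**Figure D4:**
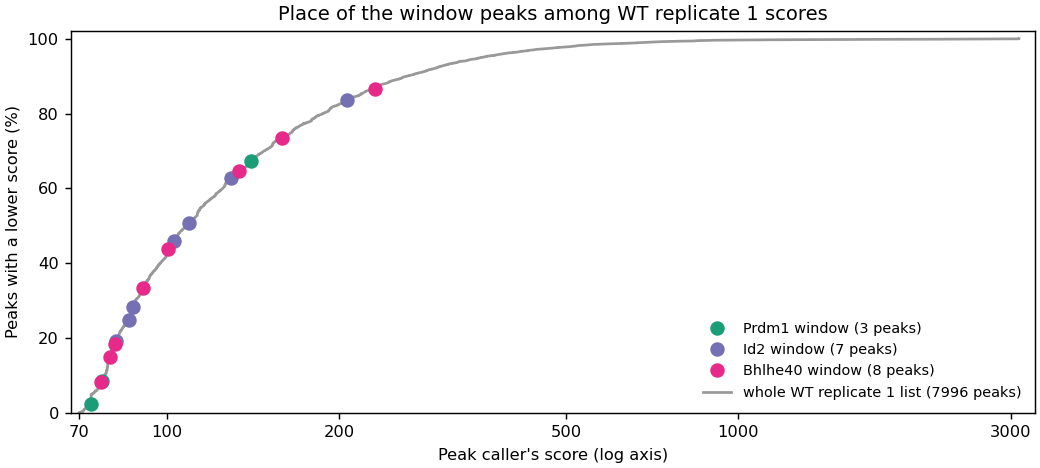
Place of the 18 window peaks among the scores of WT replicate 1. The x axis is the peak caller's score on a log axis, the y axis the percentage of the 7996 peaks with a lower score, and the grey line the whole list. The window peaks lie between 73.6 and 231, below the start of the highest 10% at 263.

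The windows held more WT replicate 1 peaks per Mb than the list as a whole. The 3 windows together had 18.9 replicate 1 peaks per Mb (exact 95% Poisson interval 11.2 to 29.9), against 3.01 (2.95 to 3.08) over the whole list, a ratio of 6.29. By window the density was 40.0 per Mb at Bhlhe40 (17.3 to 78.8), 20.0 at Id2 (8.04 to 41.2) and 7.50 at Prdm1 (1.55 to 21.9). The interval of Prdm1 holds the density of the whole list, and those of Id2 and Bhlhe40 do not. These intervals cover counting error only and take peaks as independent, which the Bhlhe40 run, with its gaps of as little as 101 bp, does not bear out. When the genome was divided into tiles of each window's own length, 0.724% of 200 kb tiles held at least as many replicate 1 peaks as the Bhlhe40 window. The share was 3.09% of 350 kb tiles for Id2 and 16.7% of 400 kb tiles for Prdm1. The tiles were not recounted with close peaks joined. The windows were placed around genes with earlier results of these data known, so their density is a description. The density of the whole list and the tiles also take in stretches of chromosome without genes. Windows around other genes were not compared, so the ratio does not set these 3 genes apart from other genes. In WT replicate 2 the density was 1.05 per Mb (0.0267 to 5.86) in the windows, on 1 peak, against 0.321 over the whole list, and the interval holds the value of the whole list. With each window widened by 100 kb it was 2.58 per Mb (0.703 to 6.61), on 4 peaks, and that interval lies above 0.321. The 3 added peaks were the sites before the Bhlhe40 window, from position 108499399 to 108503889 of chromosome 6. All 3 thus lay within 5 kb of each other. The interval of the widened windows takes them as independent, so it does not by itself show an excess.

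**Figure D5:**
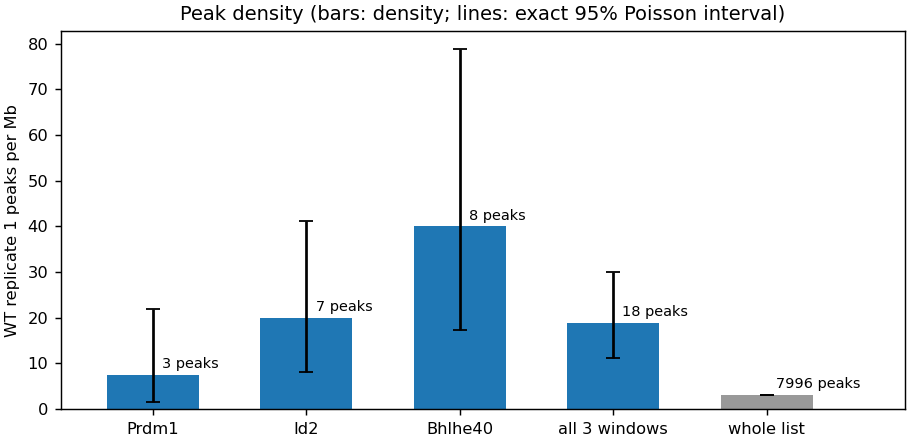
Density of WT replicate 1 peaks per Mb in each window, in all 3 windows and over the whole list. Bars give the density and lines the exact 95% Poisson interval. Bhlhe40 (40.0) and Id2 (20.0) stand above the whole list (3.01) beyond their intervals, and the interval of Prdm1 (7.50) reaches it.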

How the data were processed

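ChIP-seq peak lists of 1 T-bet KO and 2 WT iTreg libraries were used, grouped by their titles. The 3 input libraries were not analysed here. Per the submitters' processing notes, CASAVA, Bowtie2, MACS 1.4 and build mm9 were used. The sources used here state no settings, read filters, peak-call controls or depth per library. Peaks had been called per library, without pooling. Per peak, the authors deposited a score from the peak caller, on an unstated scale. No score was below 70.1, so a site missing from a list is not shown to be unbound. The scores were used only to rank, describe or filter peaks within a list.

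Positions were taken as BED intervals and are given in mm9, counted from 1. Peaks that overlapped by 1 bp or more counted as met. For shares, exact (Clopper-Pearson) 95% binomial intervals are given, and for densities exact 95% Poisson intervals, both for counting error only. Densities used the mm9 chromosome lengths of GenomeInfoDb 1.38.1 (R 4.3.3). No significance test was run, because peaks of a library are not replicates and the KO group had 1 library. The labels do not say whether the WT replicates came from separate mice or cultures. Every peak of the windows was accounted for, and those given with positions were the 3 highest replicate 1 peaks of each window and every replicate 2 peak. Other positions, those of the flanks among them, were picked with their values in view. The windows, members and motifs were chosen with earlier results of these data known. RefSeq tables of GRCm38.p6 gave promoter sequences and the names of neighbouring genes only. Motifs were searched on both strands as exact letters, and AGGTGTGAA contains AGGTGTGA, which contains GGTGTG. Overlap counting was tested on simulated data. Software was scipy 1.17.1, numpy 2.4.6 and matplotlib 3.10.9 under Python 3.11.15.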

Additional observations from a re-analysis of the deposited data

How the results depend on the processing

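Of 53 alternatives, 38 left a count within 1.5 times or a density within its interval, and 15 did not. Some of the 38 could not have moved, so their number does not measure how stable the results are. A count of 0 cannot rise when scores are cut, windows are narrowed, overlap is made stricter or KO peaks are extended. Dropping the KO filter likewise changes nothing where no KO peak lies. Widening each window by 100 kb gave 3 sites in both WT lists without a KO peak in place of 0, all before the Bhlhe40 window, with 15 replicate 1 and 3 replicate 2 peaks at Bhlhe40. The replicate 2 density became 2.58 per Mb (0.703 to 6.61), within the interval of the 1.05 per Mb of the windows as given. Its own interval lay above the 0.321 of the whole list, but takes peaks as independent. The 3 added replicate 2 peaks lay within 5 kb of each other. Narrowing by 50 kb left 4 Id2 peaks of replicate 1. A score of at least 100 left 1, 4 and 4 replicate 1 peaks at Prdm1, Id2 and Bhlhe40 and 0 replicate 2 peaks at Prdm1, with densities of 9.47 and 0 per Mb in replicates 1 and 2. Over the whole replicate 1 list, the same score left 1.73 per Mb, so the ratio was 5.49. Joining peaks within 500 bp left 5 replicate 1 peaks at Bhlhe40. These falls follow from removing or joining peaks. Leaving out 1 WT replicate at a time gave 1 to 18 peaks without a KO peak, 1 without replicate 1 and 18 without replicate 2. In an addition chosen after seeing the data, peaks up to 5 kb apart counted as met: 2 of 18 replicate 1 members (11.1%, 1.38 to 34.7%) and the 1 replicate 2 member then had a counterpart, all at Prdm1, against 13.8% and 89.2% of the whole lists. With a score of at least 100 no replicate 2 member was left, so its share had no value. The KO count stayed at 0 in all 3 alternatives run, of which only the widening by 100 kb could have raised it. No paired analysis was possible because no test was run, the KO group holds 1 library and the input libraries with matching replicate numbers were not used here. Comparisons between lists are limited by their unknown depth. Read lengths of 35 and 50 bp are given alike for every sample, so the read length of each library is not known either.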

Other observations

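Peaks of WT replicate 1 were joined into runs wherever consecutive peaks lay within 5 kb, a rule chosen after the Bhlhe40 peaks had been seen. The 7996 peaks formed 6484 runs, and 5411 peaks, or 67.7%, stood alone. Only 6 runs held at least 7 peaks, as the Bhlhe40 run did. This count takes peaks as the peak caller split them, and gaps in the Bhlhe40 run were as small as 101 bp. Joining peaks within 500 bp left 5 replicate 1 peaks in the Bhlhe40 window, and the runs were not recounted after joining. With a span of 7.61 kb it was the shortest of these 6, and the others spanned 10.5 to 35.6 kb. A WT replicate 2 peak lay in 2 of the 6, and a KO peak in 0. The shares over all runs were not computed, so the 2 counts are a description. Only 0.550% of the whole replicate 1 list met a KO peak, so a KO count of 0 among 6 runs says little. The highest score of the Bhlhe40 run, 231, was below those of 4 of the other runs, which were 389 to 1048, and above the 184 of the fifth.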
